A study of Mus musculus with 40 samples.

Results

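The clustered protocadherin genes were followed in mouse embryonic stem (mES) cells and in epiblast-like cells (EpiLCs) that lacked parts of the nuclear lamina. The members were all protein-coding genes of the gene count table on chromosome 18 whose symbol starts with Pcdha, Pcdhb or Pcdhg, which gave 59 of the 56748 genes in the table. They comprise 15 genes of the alpha subcluster, 22 of the beta subcluster and 22 of the gamma subcluster, the last made of 12 A-type, 7 B-type and 3 C-type genes. All 59 lie on the forward strand between positions 37063237 and 37974926 of chromosome 18 in GRCm39, a span of 912 kb. The alpha genes occupy 37063237 to 37320714, the beta genes 37397991 to 37657532, and the gamma genes 37794846 to 37974926.

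Clustered protocadherins are cadherin-like adhesion proteins of the cell surface that are best known from neurons, where each cell uses a small combination of them as a molecular identity. In the alpha and gamma subclusters each isoform has its own promoter and its own large first exon, which encodes the extracellular part, and all isoforms of a subcluster are spliced to the same constant exons for the cytoplasmic part. The beta genes stand alone, with no shared constant exon. The choice of promoter is known to depend on CTCF, cohesin and DNA methylation, and SMCHD1 is a known repressor of the locus. The last isoforms of the alpha and gamma subclusters, called C-type, are less closely related in sequence to the others.

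Total RNA was sequenced from 40 libraries of 4 genotypes at 2 stages, 1 well of cells per library. The genotypes were wild-type (WT, 8 libraries per stage), LBRKO, which lacks the lamin B receptor, TKO, which lacks Lmna, Lmnb1 and Lmnb2, and QKO, which lacks these lamins and Lbr (4 libraries per genotype and stage). The mES cells were kept naive for 48 h in LIF with 3 µM CHIR99021, a GSK3 inhibitor, and 1 µM PD0325901, a MEK inhibitor, while the primed EpiLCs were grown for 48 h in Activin A (12 ng/mL) and FGF (20 ng/mL). LBRKO libraries come from frameshift clones whose identity the labels do not give for each library, QKO is 1 clone derived from TKO whose Lbr alleles carry a frameshift and an in-frame deletion, and the study's methods describe chromosome gains in part of the WT cells and in the TKO cells. P-values therefore measure the spread between wells of the same lines.

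The libraries held 22.6 to 48.9 M counted reads, with a median of 33.0 M (M, 1000000 reads). WT replicates 5 to 8 (39.4 to 48.9 M) and the LBRKO libraries (39.7 to 48.1 M) were deeper than WT replicates 1 to 4 (25.4 to 33.5 M), TKO (22.6 to 33.6 M) and QKO (24.5 to 33.0 M). The labels name no batch, so mutant differences are also given against only the WT libraries of like depth. Mean Lmnb1 was 8.47 CPM (counts per 1000000 reads after TMM scaling) in TKO mES cells, 13.8 in QKO and 514.55 in WT, and mean Lmnb2 was 4.30, 2.58 and 105 CPM. In EpiLCs Lmnb1 was 0.840 CPM in TKO, 1.83 in QKO and 516 in WT, and Lmnb2 was 2.57, 1.48 and 95.9 CPM. Lmna was 15.9 CPM in TKO, 19.1 in QKO and 57.8 in WT mES cells, but 7.75, 8.38 and 11.3 CPM in EpiLCs, under 2-fold below WT. Among mES cells, Lbr mRNA was 372 CPM in WT, 209 in LBRKO and 237 in QKO, and among EpiLCs it was 429, 306 and 277 CPM, each under 2-fold below WT, and a frameshift need not lower an mRNA. The summed naive markers lay at 4027 to 4717 CPM in WT mES cells and at 106 to 174 CPM in WT EpiLCs, and the summed primed markers at 132 to 214 and 3199 to 3893 CPM. In bulk RNA of this kind, fewer cells using a gene and less RNA per cell cannot be told apart.

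Across all 40 libraries the gamma genes carried nearly all reads of the family. They held 72209 counts in total, against 2426 for the beta genes and 727 for the alpha genes. A gamma gene had between 21 and 10805 counts with a median of 2615, whereas the median was 55 for a beta gene and 23 for an alpha gene. A gene's counts come only from reads that no other gene shares, so alpha and gamma values rest mainly on the isoforms' own first exons and leave out the constant exons. Set per kb of exon that no other annotated gene covers, the median level was 0.669 CPM per kb for gamma genes, with a range of 0.163 to 4.18, 0.00974 for beta genes and 0.00963 for alpha genes. The beta genes, which have no shared exon to lose, were thus as low per kb as the alpha genes.

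**Figure D1:**
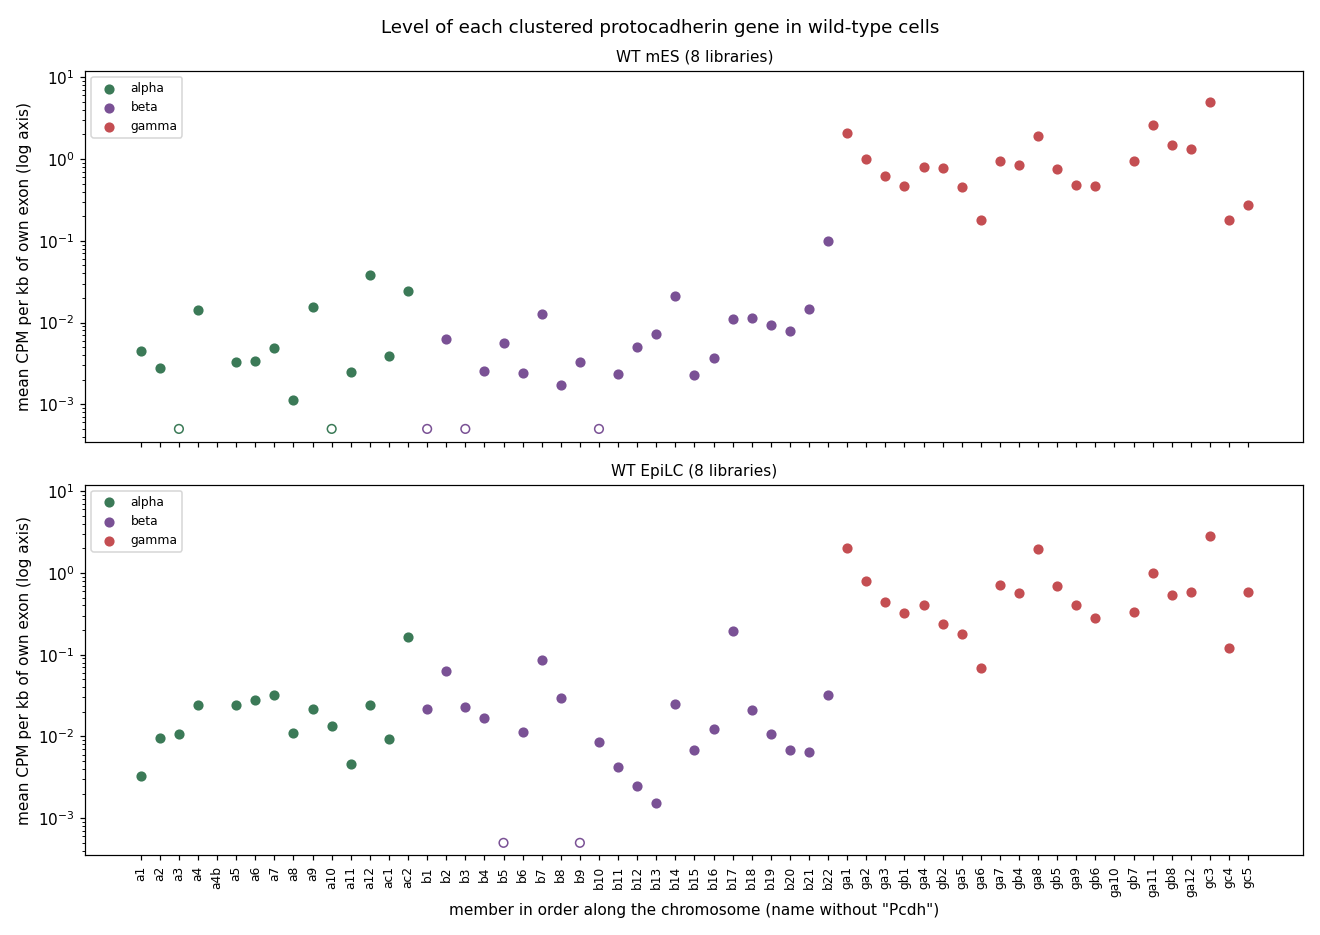
Mean level of each member in the 8 WT mES libraries (top) and the 8 WT EpiLC libraries (bottom), in CPM per kb of exon not shared with another gene on a log axis, with members in chromosomal order. Open circles at the bottom mark members with 0 counts, and members with no unshared exon are left blank. The gamma genes stand above nearly all alpha and beta genes at both stages.

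Within the gamma subcluster, the C-type gene Pcdhgc3 had the highest level per kb, at 5.03 ± 1.10 CPM per kb (SD, n = 8) in WT mES cells. Pcdhga11 (2.58 ± 0.51), Pcdhga1 (2.07 ± 0.34) and Pcdhga8 (1.94 ± 0.25) followed and lay within about 1 SD of their neighbour in this order. The lowest gamma genes were Pcdhgc5 (0.275 ± 0.077), Pcdhga6 (0.181 ± 0.091) and Pcdhgc4 (0.179 ± 0.081), the last pair within its spread. In WT EpiLCs Pcdhgc3 again led at 2.87 ± 0.41 CPM per kb, before Pcdhga1 at 1.99 ± 0.22 and Pcdhga8 at 1.96 ± 0.35, a pair that did not differ beyond its spread.

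Outside the gamma subcluster, Pcdhb22, the last beta gene along the chromosome, was highest in WT mES cells, at 0.0992 ± 0.0362 CPM per kb. In WT EpiLCs Pcdhb17 (0.193 ± 0.042) and the alpha C-type gene Pcdhac2 (0.162 ± 0.071) were the highest outside the gamma subcluster, and both lay above Pcdhgc4 (0.122 ± 0.065), by about 1 SD or less. In WT mES cells 3 alpha and 3 beta members had 0 counts in all 8 libraries, and in WT EpiLCs 1 alpha and 2 beta members did.

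Some members could not be measured through their own reads. Pcdha4b, a read-through model with 0 bases of unshared exon, had 0 counts. Pcdhga10 had 21 counts against 605 to 10805 for the other gamma genes, and all of its exon bases are also covered by other genes, among them the antisense gene Gm26672. In a second table that also splits reads matching several places or genes, Pcdhga10 had 6791 counts. That table added 4445 to 10487 counts to each gamma gene and 31 to 66 to each alpha gene except Pcdha4b, which had 1436 there, since it divides constant-exon reads over all isoforms, and it therefore pulls the isoforms of a subcluster towards a common value. Of the 59 members, 26 passed the filter on low counts: Pcdhac2, the beta genes Pcdhb7, Pcdhb14, Pcdhb17 and Pcdhb22, and all gamma genes except Pcdhga10. All tests below concern these 26, fitted together with 23399 genes, and a gene was called at a Benjamini-Hochberg adjusted p under 0.05 in edgeR's quasi-likelihood test with a change over 2-fold.

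The mean summed levels of the subclusters moved in opposite directions between the naive and the primed stage. In WT cells the summed alpha level was 0.251 ± 0.104 CPM (SD, n = 8; range 0.145 to 0.402) in mES cells and 0.930 ± 0.347 CPM (0.264 to 1.39) in EpiLCs. The summed beta level was 1.25 CPM (0.622 to 2.03) and 2.51 CPM (1.72 to 3.90). The alpha and beta ranges of the stages overlapped, and single genes carried much of both rises. Pcdhac2 lay at 0 to 0.178 CPM in WT mES cells and at 0.147 to 0.786 CPM in WT EpiLCs. Pcdhb17 lay at 0 to 0.10 and at 0.684 to 1.30 CPM, while Pcdhb22 fell (log2 change -1.61). The summed gamma level was 57.3 ± 6.40 CPM (48.3 to 65.3) in mES cells and 38.8 ± 2.5 CPM (34.4 to 42.7) in EpiLCs, with no overlap between the stages. The EpiLC to mES ratio was 3.70 for alpha, 2.02 for beta and 0.676 for gamma, and 1.86, 2.03 and 0.736 in the table that splits shared reads. The gamma share of all member CPM was 97.5% in WT mES cells and 91.9% in WT EpiLCs. These sums were not tested.

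**Figure D2:**
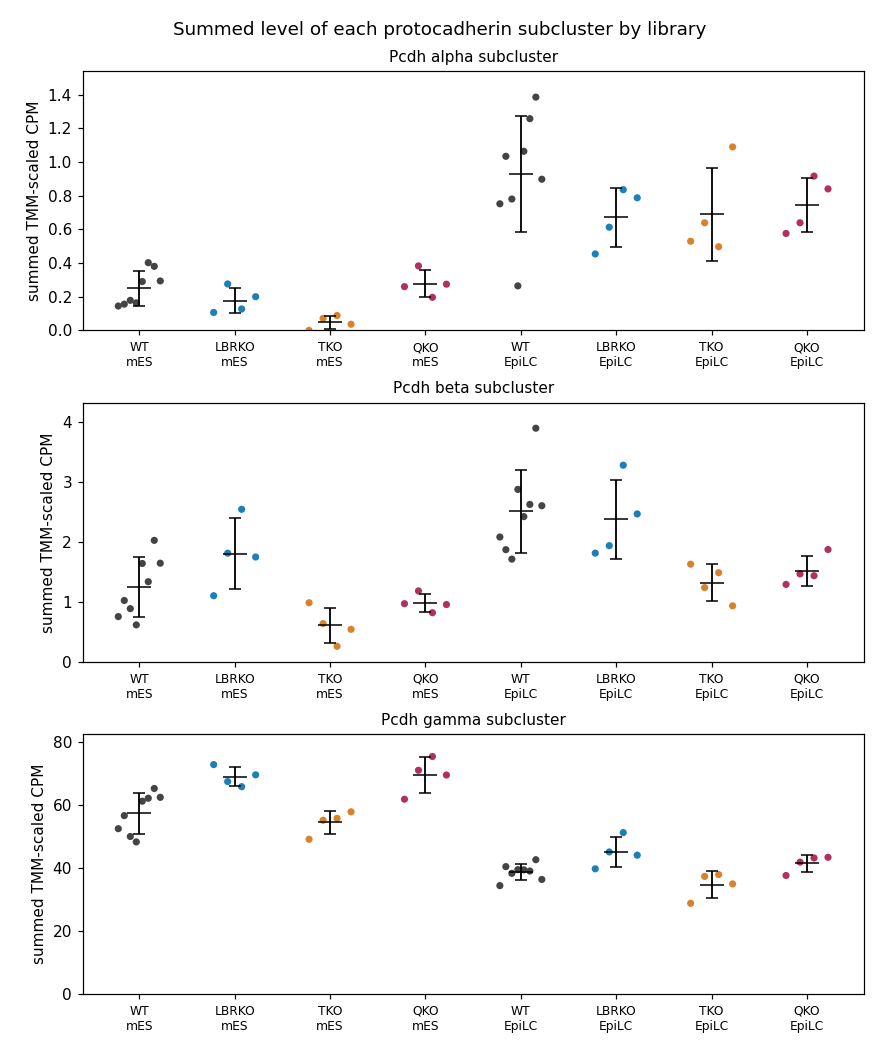
Summed TMM-scaled CPM of the alpha, beta and gamma members in each of the 40 libraries (points), with the mean and SD of each group (bars) for WT (8 libraries) and for LBRKO, TKO and QKO (4 each) in mES cells and EpiLCs. Mean alpha sums are higher and mean gamma sums lower in EpiLCs than in mES cells. The WT gamma sums of the stages do not overlap, while the WT alpha and beta sums do.

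Of the 26 members tested, 4 rose and 9 fell more than 2-fold from WT mES cells to WT EpiLCs. Over all genes tested, 18.2% rose and 12.9% fell. At an adjusted p under 0.05 without the fold requirement, 4 members rose and 15 fell, against 35.8% and 28.6% of all genes. The median log2 change was -0.58 for the 21 gamma genes and 0.07 for all genes.

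The members that rose came from all 3 subclusters. Pcdhac2, Pcdhb7 and Pcdhb17 passed the count filter through EpiLC libraries only, so their rises are tied to that selection. Pcdhb17 had 0 to 0.101 CPM in WT mES cells, with a median of 0.0611, and 0.684 to 1.30 CPM with a median of 0.907 in WT EpiLCs. The groups did not overlap, and the log2 change was 3.92 ± 0.42 (SE; edgeR adjusted p = 5.56e-11). It kept its call in all 23 alternative fits tried for it.

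Pcdhac2 ranged from 0 to 0.178 CPM with a median of 0.0539 in WT mES cells and from 0.147 to 0.786 CPM with a median of 0.463 in WT EpiLCs. The ranges overlapped slightly, and the log2 change was 2.60 ± 0.40 (edgeR adjusted p = 3.52e-07). Pcdhb7, at 0 to 0.145 CPM and then 0.0881 to 0.498 CPM, changed by 2.60 ± 0.61. Both rest on few reads, 24 and 154 counts over 8 libraries each for Pcdhac2 and 14 and 92 for Pcdhb7.

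Pcdhgc5, the last gene of the cluster, was the gamma member that rose. Its levels were 0.579 to 1.78 CPM, median 1.31, in WT mES cells and 1.58 to 3.62 CPM, median 2.71, in WT EpiLCs, with an overlap at the edges. The log2 change of 1.07 ± 0.17 (edgeR adjusted p = 6.74e-07) fell under 2-fold without WT mES replicate 1 (0.97), without WT EpiLC replicate 1 (0.98), with WT replicates 5 to 8 alone (0.71) and in the table that splits shared reads (0.15).

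The members that fell were Pcdhb22 and 8 gamma genes of the A and B types. The largest changes among those at 0.5 CPM or more were those of Pcdhgb2, which lay at 1.76 to 2.49 CPM, median 2.15, in WT mES cells and at 0.441 to 0.905 CPM, median 0.605, in WT EpiLCs. The groups did not overlap, and the log2 change was -1.74 ± 0.18 (edgeR adjusted p = 4.12e-11). Pcdhgb7, at 1.04 to 2.53 and then 0.322 to 0.845 CPM, changed by -1.53. Pcdhgb8, at 3.00 to 4.61 and then 0.964 to 1.73 CPM, changed by -1.46, and Pcdhga11, at 2.58 to 4.11 and then 0.969 to 1.86 CPM, by -1.36. For these genes as well, no WT EpiLC library reached the lowest WT mES library.

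Pcdhb22 was the beta member called lower. It had 0.327 to 1.02 CPM, median 0.594, in WT mES cells and 0.0433 to 0.411 CPM, median 0.185, in WT EpiLCs, which overlapped. Its log2 change was -1.61 ± 0.33 (edgeR adjusted p = 5.03e-05), while that of Pcdhb14 was 0.21 ± 0.43 and missed the threshold.

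The stage change was uneven along the gamma subcluster. Pcdhga12 (-1.17), Pcdhga5 (-1.34), Pcdhga6 (-1.43) and Pcdhga4 (-1.01) were also called lower. Pcdhgc3 fell by 0.82 on the log2 scale, below the 2-fold mark, from a median of 9.13 to 5.31 CPM. Pcdhga1 (-0.05 ± 0.11) and Pcdhga8 (0.02 ± 0.12), both among the highest gamma genes, missed the threshold. The 11 gamma A genes had a median log2 change of -0.50 and the 7 gamma B genes one of -0.73. Over these 18 genes the change and the position along the chromosome correlated with a Pearson r of -0.36 and a Spearman rho of -0.34, a description of genes that share libraries and a locus. In the table that splits shared reads 21 of 22 gamma genes had a negative change, with a median of -0.43, but only 4 members in all passed 2-fold.

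**Figure D3:**
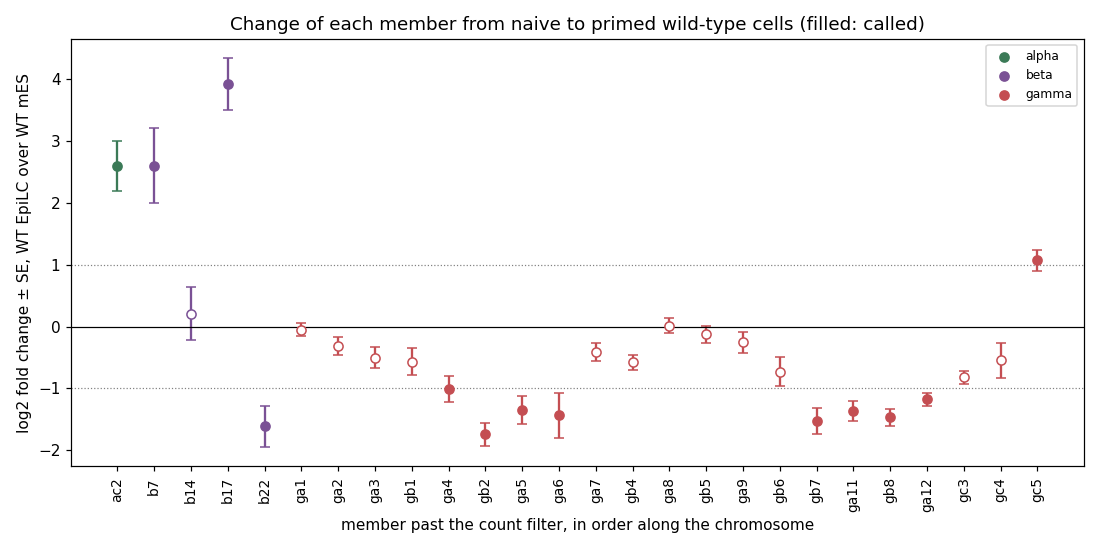
Log2 fold change from WT mES cells to WT EpiLCs (8 libraries each) with its SE for the 26 members past the count filter, in chromosomal order. Filled points are called at an adjusted p under 0.05 and over 2-fold, and dotted lines mark 2-fold. Pcdhac2, Pcdhb7, Pcdhb17 and Pcdhgc5 lie above 2-fold, and Pcdhb22 with 8 gamma A and B genes below it.

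The mutants were then compared with WT at each stage. These comparisons share the WT libraries of their stage, and QKO is set against TKO as well, so they are not independent of each other. In mES cells the summed gamma level was 69.0 ± 3.03 CPM in LBRKO (65.9 to 72.9, n = 4), 54.5 ± 3.75 in TKO (49.2 to 57.9) and 69.5 ± 5.66 in QKO (61.9 to 75.4), beside 48.3 to 65.3 in WT. In EpiLCs it was 45.1 ± 4.74 in LBRKO (39.8 to 51.3), 34.8 ± 4.17 in TKO (28.8 to 37.9) and 41.5 ± 2.69 in QKO (37.7 to 43.4), beside 34.4 to 42.7 in WT. By these reads only the LBRKO mES range lay clear of the range of all WT libraries of its stage. Against WT of like depth, all QKO mES libraries lay above WT mES replicates 1 to 4 (48.3 to 56.7 CPM). All LBRKO mES libraries lay above WT mES replicates 5 to 8 (61.2 to 65.3 CPM). The other mutant groups overlapped their WT replicates of like depth. In the table that splits shared reads, LBRKO mES cells (137 to 151 CPM) and QKO mES cells (141 to 157 CPM) overlapped WT mES cells (129 to 149 CPM). There the LBRKO EpiLCs (118 to 128 CPM) and QKO EpiLCs (106 to 121 CPM) lay above WT EpiLCs (94.7 to 105 CPM). The WT mES libraries themselves differed with depth, with a mean gamma sum of 51.9 CPM in replicates 1 to 4 and 62.8 CPM in replicates 5 to 8, alpha sums of 0.161 and 0.342 CPM and beta sums of 0.826 and 1.67 CPM. In WT EpiLCs the gamma sums of these sets were 38.2 and 39.4 CPM.

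**Figure D4:**
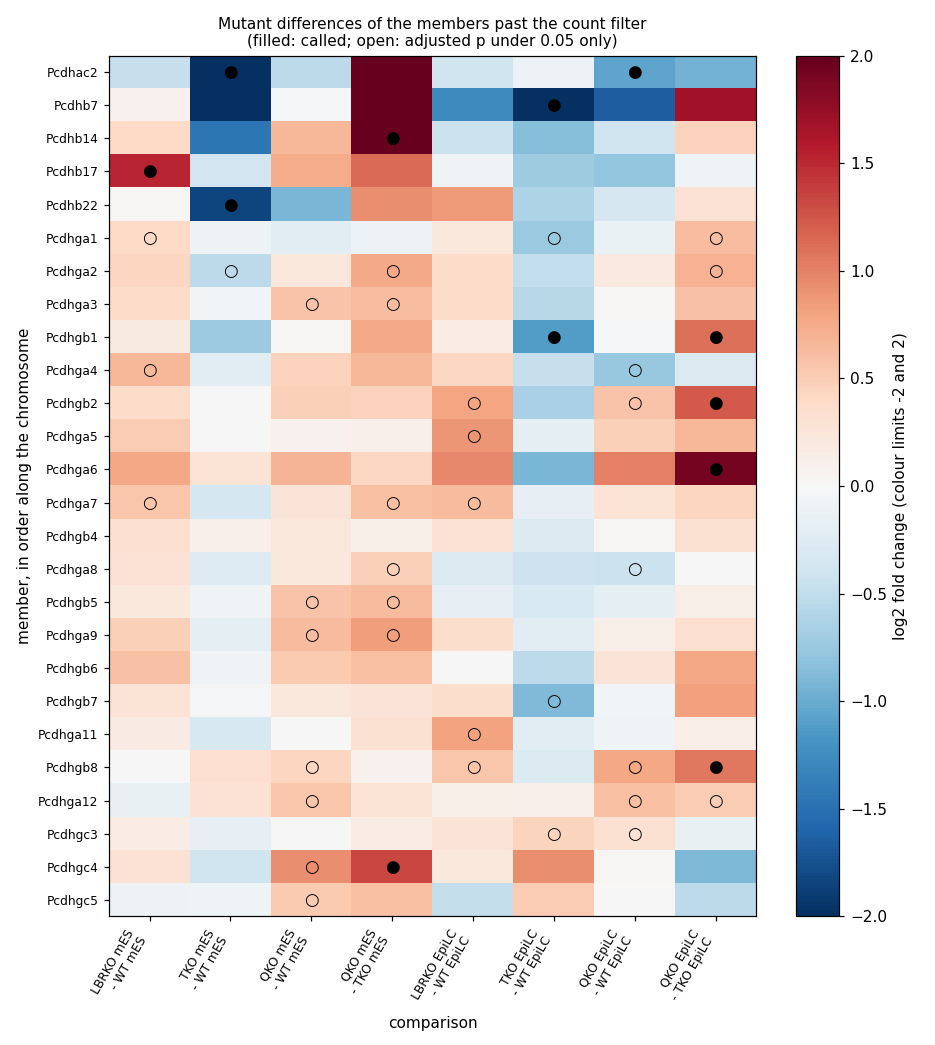
Log2 fold change of the 26 members past the count filter in each comparison of a mutant with WT or of QKO with TKO, as colour with limits at -2 and 2. Filled circles mark members called at an adjusted p under 0.05 and over 2-fold, and open circles those with an adjusted p under 0.05 alone. Filled circles are few in every column, and most gamma genes are red in the QKO columns against TKO.

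In LBRKO mES cells 1 member was called higher and 0 lower, against 3.06% and 3.25% of all genes. It was Pcdhb17, with 0.0639, 0.150, 0.230 and 0.233 CPM in LBRKO and 0 to 0.101 CPM in WT. The groups overlapped by 1 LBRKO library, and the log2 difference was 1.53 ± 0.55 (edgeR adjusted p = 0.037). Against the WT replicates of like depth the difference was 0.82 with an adjusted p of 0.34, and the call was also lost without any 1 of LBRKO replicates 2, 3 and 4 or of WT replicates 1 to 4, each of which left 0 members called. Without the fold requirement 4 members were higher and 0 lower, against 12.7% and 11.2% of all genes, and against WT replicates 5 to 8 this count was 0. Of the 21 gamma genes 19 had a positive difference, with a median of 0.33. Beside this, the summed primitive endoderm markers were 18.9 to 21.7 CPM in LBRKO and 8.11 to 9.79 CPM in WT mES cells. The fibroblast markers were at 5.90 to 6.66 and 2.61 to 3.89 CPM and the trophectoderm markers at 139.97 to 146 and 109 to 123 CPM, also without overlap. Of 6 tested in each list, 2 primitive endoderm, 1 fibroblast and 2 trophectoderm markers were called higher and 0 lower. The largest trophectoderm rise in CPM was that of Krt8 (65.7 in LBRKO, 30.6 in WT). Tfap2c (62.3 and 78.0), Elf5 (0.193 and 0.238) and the primitive endoderm marker Foxa2 (0.302 and 0.566) were lower in LBRKO. The part of these cell types in the member values was not tested.

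In LBRKO EpiLCs 0 members were called in either direction by edgeR or DESeq2, and 0 passed 2-fold at an unadjusted p under 0.05, against 3.04% of all genes called higher and 2.63% lower. At an adjusted p under 0.05 and any fold 5 gamma genes were higher and 0 lower, against 11% and 14.2% of all genes. They were Pcdhgb2 (0.79), Pcdhga5 (0.89), Pcdhga7 (0.64), Pcdhga11 (0.81) and Pcdhgb8 (0.56). Pcdhga11 had 1.6, 2.25, 2.38 and 2.65 CPM in LBRKO EpiLCs and 0.969 to 1.86 CPM in WT. The groups overlapped by 1 LBRKO library, and the difference kept an adjusted p under 0.05 against either set of WT replicates. Against WT replicates 5 to 8 alone, 4 members were higher and 0 lower. Beside this, the summed naive markers were at 198 to 297 CPM in LBRKO and 106 to 174 CPM in WT EpiLCs, and the primed markers at 2566 to 2904 and 3199 to 3893 CPM, with no overlap. The primed sum was mostly Dnmt3b (3023 CPM in WT and 2286 in LBRKO EpiLCs), and 0 of the 5 primed markers were called. The part of these markers in the member values was not tested.

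In TKO mES cells 0 members were called higher and 2 lower, against 2.68% and 3.77% of all genes. Pcdhb22 was at 0.0589, 0.183, 0.214 and 0.231 CPM in TKO and at 0.327 to 1.02 CPM in WT, so every TKO library was below every WT library. The log2 difference was -1.84 ± 0.45 (edgeR adjusted p = 0.0022), and the call held in all 19 alternative fits. The other was Pcdhac2, which rests on 1 count in 4 TKO libraries and 24 counts in 8 WT libraries, a ratio of 0.102 with a 95% exact counting interval of 0.00249 to 0.627. Against the WT replicates of like depth its adjusted p was 0.57. Leaving out any 1 of TKO replicates 3 and 4 or WT replicates 6 to 8 left 1 member called.

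The alpha sums rested on 0 to 3 counts per TKO mES library, at 0 to 0.0884 CPM, and on 4 to 6 counts in each of WT mES replicates 1 to 4, at 0.145 to 0.179 CPM. In the table that splits shared reads they were at 0.913 to 1.12 CPM in TKO and 1.12 to 1.46 CPM in all 8 WT mES libraries, which met at the edge. The gamma genes had a median difference of -0.08, which turned to 0.11 against WT replicates 1 to 4 alone. Without the fold requirement 0 members were higher and 3 lower in TKO mES cells, against 8.09% and 13.2% of all genes.

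In TKO EpiLCs 0 members were called higher and 2 lower, against 1.44% and 1.48% of all genes. Pcdhgb1 was at 0.265, 0.355, 0.454 and 0.459 CPM in TKO and at 0.517 to 1.15 CPM in WT, without overlap. The log2 difference was -1.11 ± 0.31 (edgeR adjusted p = 0.011), was -0.99 without TKO replicate 1, and was -0.03 in the table that splits shared reads. Pcdhb7 had 3 counts in 4 TKO libraries and 92 in 8 WT libraries, a ratio of 0.0879 with a 95% exact counting interval of 0.0178 to 0.265, and did not overlap either. Against the WT replicates of like depth Pcdhb7 differed by -2.87 with an edgeR adjusted p of 0.065. Pcdhb7 passed the count filter through WT EpiLC libraries only, so this fall is tied to that selection. Leaving out any 1 of TKO replicates 1 to 3 or WT replicates 1, 5 and 6 left 1 member called, and leaving out TKO replicate 4 or WT replicate 8 gave 3.

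At any fold, 1 member was higher and 4 lower in TKO EpiLCs, against 4.63% and 10% of all genes. Pcdhga1 was at 2.30, 3.45, 3.73 and 3.98 CPM in TKO and at 4.75 to 6.46 CPM in WT. No TKO library reached the WT range, and the difference of -0.75 ± 0.14 (edgeR adjusted p = 0.000126) kept its direction and an adjusted p under 0.05 under each processing alternative, leaving out single libraries not among them. Pcdhgc3 went the other way, at 5.96, 6.51, 7.99 and 8.03 CPM against 4.07 to 6.02 CPM. It was higher by 0.45 ± 0.13 (edgeR adjusted p = 0.014), or with an adjusted p of 0.051 against the WT replicates of like depth. The other gamma C-type genes had positive differences that missed the threshold, 0.93 for Pcdhgc4 (edgeR adjusted p = 0.060) and 0.51 for Pcdhgc5 (edgeR adjusted p = 0.085).

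The share of each isoform type was also read in every library. The C-type genes supplied 31.0 to 36.1% of the summed gamma level in TKO EpiLCs, with a mean of 33.9%. In WT EpiLCs they supplied 19.3 to 28.9% with a mean of 21.6% (20.1 to 28.9% in replicates 1 to 4), in LBRKO EpiLCs 16.9 to 20.8%, and in QKO EpiLCs 21.8 to 24.4%. The TKO range lay above all of these. In mES cells the C-type share was 15.9 to 23.5% in WT and had a mean of 18.1% in TKO. From mES cells to EpiLCs the C-type sum changed by a ratio of 1.19 in TKO and 0.755 in WT, the A-type sum by 0.583 and 0.708, and the B-type sum by 0.406 and 0.567. The C-type ratio was 0.997 in WT replicates 1 to 4 (8.88 to 8.86 CPM) and 0.592 in WT replicates 5 to 8 (13.2 to 7.81 CPM). These shares and ratios were not tested. The median difference of the gamma genes in TKO EpiLCs was -0.31 with each gene's own reads and 0.08 in the table that splits shared reads.

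**Figure D5:**
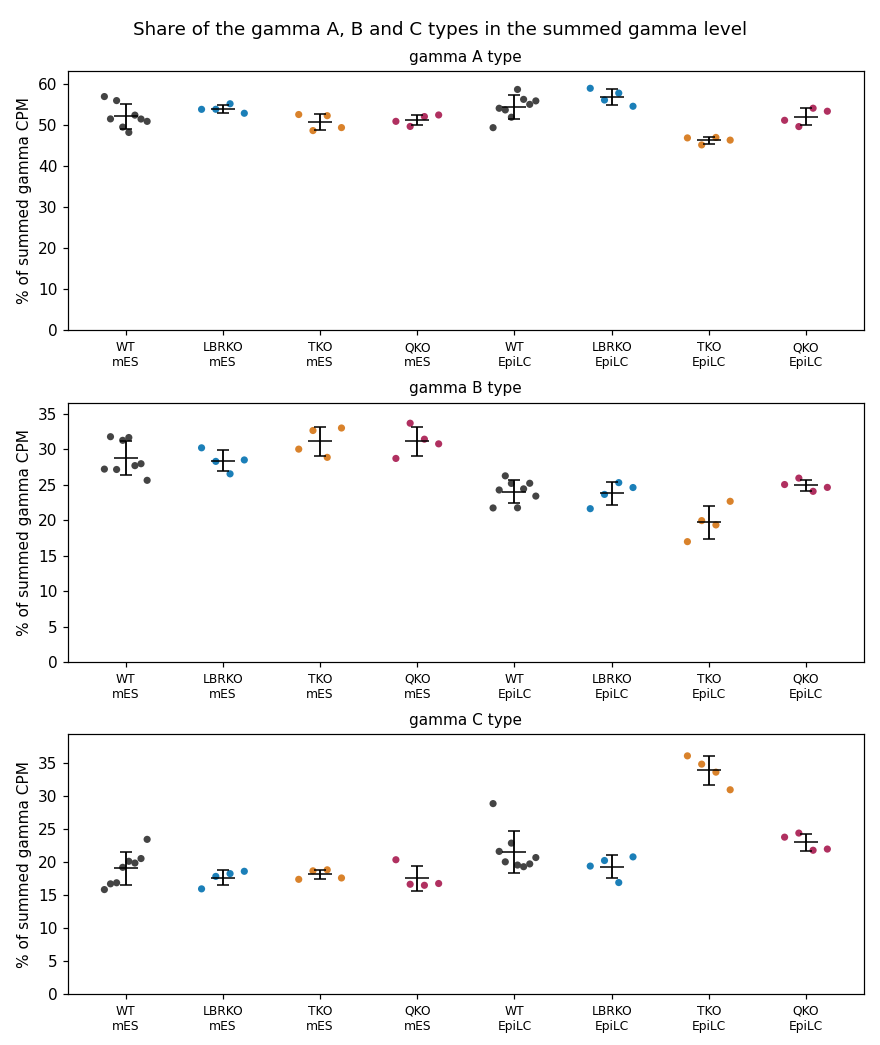
Share of the summed gamma CPM that came from gamma A, B and C-type genes in each of the 40 libraries (points), with the mean and SD of each group (bars). The 4 TKO EpiLC libraries have C-type shares of 31.0 to 36.1%, above the 19.3 to 28.9% of the 8 WT EpiLC libraries.

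In QKO mES cells 0 members were called in either direction by edgeR or DESeq2, and 0 passed 2-fold at an unadjusted p under 0.05, against 10.6% of all genes called higher and 6.66% lower. These counts use all WT libraries. Against the WT replicates of like depth alone some members were called, as counted in the closing section. At any fold 7 members were higher and 0 lower, against 21% and 23.5% of all genes, and 9 and 0 against WT replicates 1 to 4. All 7 were gamma genes, with differences from 0.43 (Pcdhgb8) to 0.93 (Pcdhgc4). Pcdhga12 was at 6.92, 7.20, 8.65 and 9.15 CPM in QKO and at 4.42 to 6.36 CPM in WT. Its groups did not overlap, and it was higher by 0.55 ± 0.12 (edgeR adjusted p = 0.000296). The median of the 21 gamma genes was 0.43 and that of all genes 0.01.

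In QKO EpiLCs 0 members were called higher and 1 lower, against 13% and 8.16% of all genes. The member was Pcdhac2, at 0.0982, 0.160, 0.324 and 0.364 CPM in QKO and 0.147 to 0.786 CPM in WT. The groups overlapped, and the difference of -1.06 ± 0.46 (edgeR adjusted p = 0.048) had an adjusted p of 0.32 against the WT replicates of like depth. The call was also lost without QKO replicate 2 or 3 or WT replicate 6, each of which left 0 members called, and 3 were called without QKO replicate 4. At any fold 4 members were higher and 3 lower, against 24.3% and 30.5% of all genes, and 3 and 0 against WT replicates 1 to 4. Pcdhgb8 (0.78 ± 0.17, edgeR adjusted p = 0.000123) and Pcdhga12 (0.60 ± 0.13, edgeR adjusted p = 0.000125) were higher. Pcdhga4 was lower by 0.76, and by the table that splits shared reads its difference was 0.07 in the other direction.

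QKO was also set against TKO. In mES cells 2 members were called higher in QKO and 0 lower, against 4.09% and 2.12% of all genes. Pcdhgc4 was at 0.721, 1.10, 1.26 and 1.77 CPM in QKO and at 0.165, 0.571, 0.585 and 0.589 CPM in TKO. The groups did not overlap, and the log2 difference was 1.34 ± 0.40 (edgeR adjusted p = 0.013), with an adjusted p of 0.073 without TKO replicate 1 and 0.068 without QKO replicate 3. Pcdhb14 had 8 counts in TKO and 34 in QKO over 4 libraries each, a TKO to QKO ratio of 0.219 with a 95% exact counting interval of 0.0877 to 0.483. Its groups overlapped, at 0 to 0.165 CPM in TKO and 0.0686 to 0.520 CPM in QKO. Leaving out any 1 of TKO replicates 1 to 3 or QKO replicates 2 and 3 left 1 member called. At any fold 8 members were higher and 0 lower, against 9.16% and 11.3% of all genes.

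In EpiLCs 4 members were called higher in QKO than in TKO and 0 lower, against 9.97% and 5.29% of all genes. Pcdhgb8 was at 1.55, 2.21, 2.42 and 2.91 CPM in QKO and at 0.839, 1.07, 1.19 and 1.27 CPM in TKO. The groups did not overlap, and the log2 difference was 1.05 ± 0.21 (edgeR adjusted p = 5.56e-05), falling to 0.91 without QKO replicate 2 and 0.95 without TKO replicate 1.

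Pcdhgb2 (1.22 ± 0.29, or 0.93 without QKO replicate 2) and Pcdhgb1 (1.09 ± 0.35) did not overlap between QKO and TKO EpiLCs either. Pcdhgb1 fell under 2-fold without QKO replicate 1 (0.93), QKO replicate 2 (0.94) or TKO replicate 1 (0.96). Pcdhga6, with 45 counts in QKO and 10 in TKO, was the fourth. In the table that splits shared reads 0 of these 4 were called, with log2 differences from 0.10 to 0.33. At any fold 7 members were higher and 0 lower, against 18.9% and 23% of all genes. Of the 21 gamma genes 16 had a positive difference and 5 a negative one. Pcdhgc4 (-0.90, edgeR adjusted p = 0.074), Pcdhgc5 (-0.52, edgeR adjusted p = 0.074) and Pcdhac2 (-0.94, edgeR adjusted p = 0.15) missed the threshold, and each had all QKO EpiLC libraries below all TKO EpiLC libraries. The median of the gamma genes was 0.47 in mES cells and 0.50 in EpiLCs.

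Whether the stage change of a member differed between a mutant and WT was tested as an interaction. In LBRKO 0 members were called by edgeR and 1 by DESeq2, against 6% of all genes in either direction, and 1 passed 2-fold at an unadjusted p under 0.05. At any fold 0 members passed, against 15.5% of all genes. In TKO 0 were called by either tool, against 3.03%, with 2 at an unadjusted p under 0.05 and over 2-fold. At any fold 2 members passed, against 8.44% of all genes. The stage change of Pcdhga1 was more negative in TKO by 0.65 ± 0.19 (edgeR adjusted p = 0.023) and that of Pcdhgc3 more positive by 0.61 ± 0.19 (edgeR adjusted p = 0.030), the latter with an adjusted p of 0.59 against WT replicates 1 to 4 alone.

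In QKO 1 member was called, against 12.6% of all genes, and 3 passed at any fold, against 29.8%. The member called was Pcdhga4. In QKO its mES libraries were at 1.40, 1.61, 1.82 and 2.12 CPM and its EpiLC libraries at 0.197, 0.224, 0.396 and 0.644 CPM, while WT went from a median of 1.30 to 0.593 CPM. The stage change was more negative by 1.21 ± 0.37 (edgeR adjusted p = 0.011), and the difference was 0.0043 and of the other sign in the table that splits shared reads.

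The QKO difference was also set against the sum of the LBRKO and TKO differences. In mES cells 0 members departed from the sum by edgeR at the call threshold, against 7.5% of all genes, and 1 did at an unadjusted p under 0.05. In EpiLCs 0 did, against 8.05% of all genes, and 2 did at an unadjusted p under 0.05. DESeq2 called 0 members at both stages.

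Genes known to act on the locus were read from lists. For the list counts below, the shares of all genes called are those given above for each comparison. Of 11 genes for CTCF and cohesin subunits or loaders, 0 were called in any of the 6 comparisons of a mutant with WT, with medians within 0.09 of 0 on the log2 scale. Only Stag2, a cohesin subunit, rose from WT mES cells to EpiLCs (1.40). Of 16 genes for silencing of the clusters, 4 rose with the stage and 0 fell, against 18.2% and 12.9% of all genes. Those that rose were the DNA methyltransferases Dnmt3a (4.04) and Dnmt3b (4.32), their cofactor Dnmt3l (2.65) and Lrif1 (1.10), a partner of SMCHD1. In the mutants Dnmt3l was called higher in LBRKO (2.88), TKO (1.32) and QKO (2.28) mES cells and in LBRKO (2.12) and QKO (2.07) EpiLCs, and Lrif1 in QKO mES cells (1.09). Of 5 demethylation genes, the dioxygenase Tet3 rose (1.22) and Tet2 (-3.30) and Dppa3 (-4.78) fell with the stage. Dppa3 was higher in TKO (1.37) and QKO (1.99) EpiLCs and lower in LBRKO mES cells (-1.31), Tet2 was higher in LBRKO EpiLCs (1.30), and Tet1 was higher in QKO EpiLCs (1.02).

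Of 14 genes for partners of the shared cytoplasmic part, 3 rose with the stage and 0 fell, against 18.2% and 12.9% of all genes. Those that rose were the WAVE complex subunit gene Cyfip2 (1.76), the kinase gene Fyn (1.31) and the receptor gene Ret (2.46). In QKO EpiLCs Cyfip2 (-1.43) and Fyn (-1.25) were lower and Ptk2b, the kinase PYK2, was higher (1.66). Ptk2b was also higher in TKO (1.14) and QKO (1.78) mES cells, and Ret in LBRKO mES cells (2.08) and EpiLCs (1.19).

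The protocadherins outside the clusters that could be tested had large stage changes. Of 12 listed, 7 were tested, and 6 rose and 1 fell in WT, with a median of 5.17. Over all genes tested, 18.2% rose and 12.9% fell. Pcdh8, Pcdh10, Pcdh11x and Pcdh17 had means of 0 to 0.196 CPM in the mES groups. They passed the count filter mainly through EpiLC libraries, so their rises and the median are tied to that selection. Pcdh18 (6.59), Pcdh11x (6.40), Pcdh1 (6.28), Pcdh8 (5.17), Pcdh10 (3.47) and Pcdh17 (2.74) rose and Pcdh19 fell by 2.01 on the log2 scale. In LBRKO EpiLCs Pcdh11x, Pcdh18 and Pcdh8 were called lower, and Pcdh1 (2.02) and Pcdh18 (1.68) were higher in LBRKO mES cells. In QKO, Pcdh18 was higher in mES cells (2.94) and Pcdh11x lower in EpiLCs (-2.23). Of 9 classical cadherins 7 were tested, and 4 rose and 1 fell with the stage. Neural markers come from the cells in which clustered protocadherins are best known. Their sum was at 200.05 to 230.0 CPM in WT mES cells and 263 to 299.9 CPM in WT EpiLCs. All mutant EpiLCs lay below WT, at 192 to 205 CPM in LBRKO, 203 to 239 in TKO and 165 to 182 in QKO. Tubb3, at 109 CPM in WT EpiLCs, was at 73.1 in LBRKO, 47.8 in TKO and 31.6 in QKO. Sox1 went the other way in LBRKO (49.0) and TKO (46.8), beside 25.3 in WT, as did Neurod1 in QKO (37.7 beside 10.2). Of 15 neural markers, 4 were called lower in LBRKO, 2 in TKO and 7 in QKO EpiLCs, against 2.63%, 1.48% and 8.16% of all genes. In QKO EpiLCs 1 was called higher, against 13%. The summed fibroblast markers were at 2.61 to 3.89 and 18.8 to 24.2 CPM in WT mES cells and EpiLCs. The summed primed markers were at 2252 to 2378 CPM in QKO EpiLCs, mostly Dnmt3b (1693 CPM beside 3023 in WT EpiLCs). Fgf5 (180 beside 146), Otx2 (166 beside 119) and Pou3f1 (239 beside 226) were higher in QKO EpiLCs. Sox3 was lower (50.9 beside 58.1), and 0 of the 5 primed markers were called. The part of these markers in the member values was not tested.

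Inside the span or within 1000000 bp of it lie 41 other listed genes, of which 38 were tested. In WT 9 rose and 1 fell with the stage, against 18.2% and 12.9% of all genes. Among them were the rises of Pcdh1, Arap3 (5.84) and Spry4 (3.39) and the fall of Hbegf (-1.34). In QKO mES cells 1 was higher and 5 lower, against 10.6% and 6.66% of all genes. In QKO EpiLCs 0 were higher and 4 lower, against 13% and 8.16%. Between the beta and gamma genes, Taf7, a subunit of the general transcription factor TFIID, was called in none of the 9 comparisons of groups, with 165 CPM in WT mES cells. The transcript 4930517L18Rik within the span was higher in QKO mES cells (1.28) and QKO EpiLCs (2.78) and fell with the stage in WT (-1.74).

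Copies of transposable elements give a second readout of the same interval. Outside exons, copies in the gamma subcluster held 436 counts per kb over the 40 libraries, those between beta and gamma 59.7, those in the alpha subcluster 5.32, those in the beta subcluster 4.31 and those between alpha and beta 1.03. In the gamma subcluster their level was 0.228 to 0.469 CPM per kb in WT and 0.379 to 0.697 in QKO mES cells, which overlapped, and 0.182 to 0.268 in WT and 0.353 to 0.414 in QKO EpiLCs, which did not. The 22 copies in the span that could be tested lay in the gamma subcluster (13), between beta and gamma (8) and in the beta subcluster (1). They do not cover the alpha subcluster. Of these 22 copies, 2 rose and 3 fell from WT mES cells to WT EpiLCs, against 11.2% and 10.2% of all 134958 copies tested. In QKO 2 were higher and 0 lower in mES cells, against 9.2% and 2.9%, and 3 and 0 in EpiLCs, against 12.2% and 3.5%. The median of all copies was itself shifted by 0.32 in QKO mES cells and 0.35 in QKO EpiLCs.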

How the data were processed

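The authors trimmed reads with cutadapt 2.5, aligned them with STAR 2.7.10a to GRCm39 and counted reads per GENCODE M30 gene with featureCounts 1.6.4, per the labels, the submitters' processing notes and the study's methods. The deposited gene table holds raw counts of reads assigned to 1 gene, so reads in exons shared by several members are left out. A second deposited count table, from TEcount, splits reads that match several genes or places, and the deposited table of transposable elements gives featureCounts counts of uniquely mapped reads per copy. The library kit kept strand, but no source used here gives the strand setting of the counting, and overlapping antisense genes may share reads.

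Gene symbols and exon coordinates were matched to GENCODE M39 for 56017 of 56748 genes. Counts of 40 libraries were fitted with edgeR 4.0.16 in R 4.3.3 (TMM scaling, filterByExpr, quasi-likelihood test, 1 mean per group of genotype and stage, 23399 genes). A call needed an adjusted p under 0.05 (Benjamini-Hochberg over all genes) and over 2-fold. Fold changes of low genes depend on edgeR's prior count. Members, lists and tests were chosen with earlier results of these data known. Members were named if among the 4 highest of their subcluster, if C-type, or if among the 5 largest called changes per direction with at least 0.5 CPM. Other called members were named after their values were seen. Alternatives were DESeq2 1.42.0, RLE scaling, no count filter, the table that splits shared reads, WT replicates 1 to 4 or 5 to 8 alone, the table's exon lengths, a replicate block, and leaving out each library. Of 116 pairs of libraries with the same replicate number in different groups, 48 within a stage and 68 across stages, 43 had deviations correlated above 0.1 (range -0.41 to 0.55), among them 7 of the 8 WT pairs across stages, so the numbers were not taken to pair libraries. Counting intervals cover counting error only. The script was tested on simulated data. Sequences are not reported here.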

Additional observations from a re-analysis of the deposited data

Results flagged for a closer look

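In 139 sets of libraries (named members and summed subclusters in groups of 4 or 8), 16 had a library that stood apart from the others by Dixon's test. Chance gives about 1 in 20, a rate that does not hold where only 1 library of a set has reads. Most were members near 0 CPM in which 1 library held the few reads. Pcdha5 was highest in QKO mES replicate 3 (0.0393 CPM) and in TKO EpiLC replicate 4 (0.0606 CPM), and Pcdha12 in TKO mES replicate 2 (0.0357 CPM) and TKO EpiLC replicate 4 (0.151 CPM). Pcdhac1 was highest in LBRKO mES replicate 2 (0.023 CPM), TKO EpiLC replicate 1 (0.132 CPM) and QKO EpiLC replicate 3 (0.0655 CPM). Pcdhac2 stood out in TKO mES replicate 2 (0.0357 CPM) and QKO mES replicate 2 (0.115 CPM), and Pcdhb7 in LBRKO mES replicate 3 (0.149 CPM) and QKO mES replicate 3 (0.196 CPM). In WT EpiLCs Pcdhb14 was highest in replicate 4 (0.529 CPM) and Pcdhb17 in replicate 7 (1.30 CPM). In TKO mES cells the lowest library stood apart for Pcdhga12 (replicate 2, 6.35 CPM), Pcdhgc3 (replicate 1, 7.30 CPM) and Pcdhgc4 (replicate 1, 0.165 CPM).

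Of 33 tests of whether the stage change of a named member differed between a mutant and WT, 3 passed an adjusted p under 0.05 in edgeR at any fold, against 15.5% (LBRKO), 8.44% (TKO) and 29.8% (QKO) of all genes. The stage change of Pcdhga1 differed in TKO by -0.65 and that of Pcdhgc3 by 0.61, and that of Pcdhga8 differed in QKO by -0.64 (log2).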

How the results depend on the processing

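Counts of called members moved with the table that splits shared reads: 4 in place of 13 for the WT stage change, 0 in place of 4 for QKO against TKO EpiLCs, 1 in place of 2 for QKO against TKO mES cells, 1 in place of 2 for TKO EpiLCs and 0 in place of 1 for the QKO stage interaction, where Pcdhga4 turned from -1.21 to 0.0043. That table gave summed levels of 1.32 (alpha, WT mES), 2.45 (alpha, WT EpiLC), 138 (gamma, WT mES) and 102 CPM (gamma, WT EpiLC), and the table's full exon lengths gave median gamma levels of 0.407 (WT mES) and 0.257 CPM per kb (WT EpiLC). Shares of all genes called were not taken for the alternative fits. Without the count filter every member with any count was tested, which is more than the 26 of the main fit. The calls in that fit, both directions together, were 26 for the WT stage change, 0 for LBRKO mES, 2 for QKO mES, 2 for QKO EpiLC, 1 for QKO against TKO mES, 0 for the QKO stage interaction and 1 for the EpiLC sum of effects. With WT replicates 1 to 4 alone they were 1 for LBRKO EpiLC, 2 for QKO mES, 0 for QKO EpiLC, 1 for TKO mES, 1 for the LBRKO and 2 for the QKO stage interaction, and 1 for the EpiLC sum of effects. With WT replicates 5 to 8 alone they were 0 for LBRKO mES, 1 for QKO mES, 3 for QKO EpiLC, 5 for TKO mES, 1 for the TKO stage interaction and 2 for the mES sum of effects. DESeq2 gave 2 for QKO EpiLC and 1 for the LBRKO stage interaction. The cause was not tested.

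With the replicate block, whose numbers were not taken to pair libraries (in 35 of 116 pairs a library correlated best with its own number), the calls were 2 for LBRKO EpiLC, 1 for QKO mES, 1 for TKO mES, 1 for TKO EpiLC, 1 for the TKO stage interaction and 1 for the EpiLC sum of effects. Leaving out 1 library at a time gave 10 to 13 calls for the WT stage change, 0 to 2 for LBRKO mES, 1 to 2 for TKO mES, 0 to 1 for QKO mES (1 without QKO replicate 2 or 4 or WT replicate 7 or 8), 0 to 1 for LBRKO EpiLC (1 without LBRKO replicate 2 or WT replicate 4 or 8), 1 to 3 for TKO EpiLC, 0 to 3 for QKO EpiLC, 1 to 2 and 1 to 5 for QKO against TKO in mES cells and EpiLCs, 0 to 0, 0 to 1 and 1 to 1 for the LBRKO, TKO and QKO stage interactions, and 0 to 0 and 0 to 1 for the mES and EpiLC sums of effects. The TKO interaction gave 1 without TKO EpiLC replicate 4 or WT EpiLC replicate 8, and the EpiLC sum 1 without WT EpiLC replicate 8. Single alpha and beta genes rest on a median of 23 and 55 counts over all libraries, which limits their precision.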
